A study of Mus musculus with 25 samples.

Results

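The genes described are 10 mouse genes of intestinal xenobiotic metabolism, the chemistry by which the gut wall alters drugs, food toxins and hormones. They are 7 cytochrome P450 genes (Cyp2d26, Cyp3a25, Cyp3a11, Cyp3a13, Cyp2c55, Cyp2b10 and Cyp2j6), 2 hydrolase genes (Ces1c and Ephx2) and the receptor gene Nr1i2. They were taken by name from the probe annotation of a table of 25697 probes for 17899 genes, and older names were matched by Entrez gene number. Ces1c stands there under the older symbol Es1. The 10 genes had 17 probes, of which 14 passed the detection filter, and 9 of the 10 genes entered the tests among 11227 genes. Cyp2j6 did not, because its only probe was detected on 0 of 25 arrays.

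Gene expression had been measured on 25 Illumina bead arrays of total RNA from the intestine of female C57Bl/6 mice aged 6 to 8 weeks at the time of surgery. In surgery 2.5 cm of ileum had been resected 3.0 cm above the ileocecal valve and joined back to the ileum, and tissue was taken after 5 weeks. A self-filling loop holds standing content, whereas a self-emptying loop drains. The study used the loops as a model of stasis and asked how it acts with and without TLR4. The groups were self-filling loops labelled IL10 knockout (n = 3), self-emptying loops labelled IL10 knockout (n = 3), TLR4 knockout self-filling loops (n = 3), TLR4 knockout self-emptying loops (n = 3), wild type (WT) self-filling loops (n = 3), WT self-emptying loops (n = 4), sham-operated WT cecum (n = 3) and sham-operated WT ileum (n = 3). All groups shared the strain and a gel diet before surgery, and knockout loops were compared with WT loops of the same kind, since sham tissue of the knockouts was not analysed here. The labels do not say whether replicates came from separate animals, and the p-values therefore cover the spread among these samples alone, part or all of which can be technical. All 6 TLR4 knockout arrays carry codes of a series MX and the other 19 arrays codes of a series MW, so that code series and TLR4 genotype cannot be told apart.

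Between 12123 and 13627 probes (47.2 to 53.0%) were detected per array, that is, had a detection p under 0.05, and member probes were read on 18 to 55 beads per array (median 35). Values below are background-corrected, quantile-normalized log2 intensities. Undetected values of member probes lay between 4.19 and 4.89 on this scale, where values have no order. A difference against a group detected on only some of its arrays is therefore measured partly against this floor. Tlr4 was detected on 1 of 6 TLR4 knockout arrays and on all other arrays. The Il10 probe gave signal above background on 6 of 6 arrays of the loops labelled IL10 knockout and on 0 of the other 19 arrays, which goes against a plain reading of the label. Where the probe lies relative to any deleted part was not tested, and each direction given for these arrays rests on the label alone. Ileum and all loop groups carried enterocyte markers, and the 8 tested large-intestinal markers summed to 57297 to 65633 in cecum, 1784 to 8151 in the loops and 2630 to 3038 in ileum. Of these 8, Atp12a, Slc26a3 and Insl5 were not detected in any loop group or in ileum. Because the RNA came from whole tissue, fewer cells of a type and less RNA per cell cannot be told apart in any of the results.

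Cytochrome P450 enzymes insert an oxygen atom into lipophilic compounds, with electrons that they receive from P450 oxidoreductase. Carboxylesterases and epoxide hydrolases split esters and epoxides, and conjugating enzymes then attach sugars or sulfate so that transporters can export the product. In the intestine these enzymes sit mainly in the absorptive enterocytes of the villi and form the first barrier to swallowed compounds. Many of their genes are switched on through the ligand-binding nuclear receptors PXR, encoded by Nr1i2, and CAR, encoded by Nr1i3, which bind DNA with the partner RXR.

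The promoters of 5 of the genes are shown because these genes passed the test between cecum and ileum described below, as did Ephx2, and because nuclear receptors of this kind bind repeats of a short core sequence. The windows are 300 bases long, were taken from RefSeq (GRCm38.p6) and run 5′ to 3′ on the strand of the gene. The window of Cyp3a11 is chr5:145879805-145880104 (minus strand), that of Cyp3a25 chr5:146009569-146009868 (minus strand), that of Cyp2d26 chr15:82794196-82794495 (minus strand), that of Cyp2c55 chr19:39006769-39007068 (plus strand) and that of Ces1c chr8:93131234-93131533 (minus strand). Capitals mark matches, on either strand, to AGGTCA and AGTTCA (cores of nuclear receptor sites), CAAAGTCCA (an HNF4-type site) and TATAAA (the TATA box). The matches did not overlap each other.
Cyp3a11: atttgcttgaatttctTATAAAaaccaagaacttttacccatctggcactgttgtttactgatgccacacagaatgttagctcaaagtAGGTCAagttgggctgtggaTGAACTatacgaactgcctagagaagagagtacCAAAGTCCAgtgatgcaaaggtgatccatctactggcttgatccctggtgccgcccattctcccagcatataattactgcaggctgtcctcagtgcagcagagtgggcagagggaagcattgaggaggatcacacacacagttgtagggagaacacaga
Cyp3a25: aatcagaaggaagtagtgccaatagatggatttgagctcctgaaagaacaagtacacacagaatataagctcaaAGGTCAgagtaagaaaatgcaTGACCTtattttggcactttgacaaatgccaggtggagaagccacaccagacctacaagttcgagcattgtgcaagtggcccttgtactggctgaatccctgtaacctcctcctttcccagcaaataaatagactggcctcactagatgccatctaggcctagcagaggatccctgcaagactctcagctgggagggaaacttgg
Cyp2d26: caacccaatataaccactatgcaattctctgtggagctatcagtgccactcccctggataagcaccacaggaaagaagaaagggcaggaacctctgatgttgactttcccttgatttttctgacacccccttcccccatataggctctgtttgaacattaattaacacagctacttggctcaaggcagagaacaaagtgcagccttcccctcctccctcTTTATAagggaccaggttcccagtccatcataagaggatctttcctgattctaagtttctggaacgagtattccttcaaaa
Cyp2c55: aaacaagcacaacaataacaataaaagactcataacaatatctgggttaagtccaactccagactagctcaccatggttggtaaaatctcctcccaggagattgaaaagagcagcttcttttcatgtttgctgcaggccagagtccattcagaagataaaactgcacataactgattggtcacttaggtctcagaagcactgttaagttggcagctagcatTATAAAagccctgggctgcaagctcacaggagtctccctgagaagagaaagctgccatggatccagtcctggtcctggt
Ces1c: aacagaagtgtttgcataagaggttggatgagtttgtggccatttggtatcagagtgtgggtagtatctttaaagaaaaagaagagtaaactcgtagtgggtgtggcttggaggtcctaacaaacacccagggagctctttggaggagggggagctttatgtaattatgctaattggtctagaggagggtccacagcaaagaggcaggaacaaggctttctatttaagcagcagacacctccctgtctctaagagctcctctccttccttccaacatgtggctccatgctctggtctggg
Both CYP3A windows held a nuclear receptor core, with AGGTCA at -162 and AGTTCA at -142 in Cyp3a11 and AGGTCA at -176 and -155 in Cyp3a25, counted from the annotated start to the first letter printed. CAAAGTCCA stood at -109 of Cyp3a11. TATAAA stood at -31 in Cyp2d26, at -29 in Cyp2c55 and at -234 in Cyp3a11, and the window of Ces1c held none of the motifs. Of 27025 promoter windows of the same length, 16% held AGGTCA, 14% AGTTCA, 0.477% CAAAGTCCA and 14.2% TATAAA. The windows of Cyp3a13, Cyp2b10, Cyp2j6 and Nr1i2 held none of these letters, and Ephx2 had no entry. A match is a description of the letters only.

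Among the P450 genes, Cyp2d26, a member of the mouse CYP2D subfamily, was highest in ileum and lowest in the loops labelled IL10 knockout. Its values were 4.30, 4.82 and 4.49 in self-filling loops labelled IL10 knockout, where it was detected on 1 array, and 4.34, 5.60 and 4.69 in self-emptying loops labelled IL10 knockout, where it was also detected on 1. They were 7.40, 5.40 and 7.95 in TLR4 knockout self-filling loops, 9.68, 9.03 and 9.38 in TLR4 knockout self-emptying loops, 7.78, 6.37 and 6.63 in WT self-filling loops and 9.06, 9.56, 8.52 and 9.68 in WT self-emptying loops. Cecum had 8.68, 8.34 and 8.07 and ileum 10.50, 9.88 and 9.41. The levels thus formed 3 tiers that did not overlap at their edges: ileum, self-emptying loops of WT and TLR4 knockout and cecum on top, self-filling loops of WT and TLR4 knockout below them, and the loops labelled IL10 knockout at the limit of detection, except that 1 TLR4 knockout self-filling array (5.40) reached down to the lowest tier. Neighbouring groups within a tier overlapped. The place of cecum in these tiers holds only for the probe standing for the gene. On the other probes cecum (6.57 to 7.37 and 6.49 to 7.42) overlapped WT self-filling loops (5.64 to 6.84 and 5.58 to 6.79). There it lay below the self-emptying loops of WT and TLR4 knockout without overlap.

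Cyp3a25, a mouse CYP3A enzyme of the subfamily that oxidises many drugs and steroids, had the largest SD within a group among the members (2.80 in TLR4 knockout self-filling loops). Its values were 4.92, 7.05 and 6.07 in self-filling loops labelled IL10 knockout and 4.38, 5.57 and 4.53 in self-emptying loops labelled IL10 knockout, where it was detected on 1 array. They were 9.39, 4.26 and 8.77 in TLR4 knockout self-filling loops, 9.18, 7.96 and 9.71 in TLR4 knockout self-emptying loops, 7.63, 4.91 and 5.52 in WT self-filling loops and 7.85, 8.35, 6.27 and 9.0 in WT self-emptying loops. Cecum had 4.24, 4.34 and 4.28, with 0 of 3 arrays detected, and ileum 8.93, 9.41 and 8.81. Ileum was uniformly high and cecum below detection, and the second TLR4 knockout self-filling array was not detected while the other 2 of that group lay close to the ileum arrays. That array also had the lowest values of its group for Cyp2d26, Cyp3a11, Cyp3a13, Ces1c, Ephx2 and Nr1i2, and its summed enterocyte markers were 29862, against 64114 and 64162 on the other 2 arrays.

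Cyp3a11, the mouse CYP3A gene most used as a readout of PXR, was weak throughout and detected on 12 of 25 arrays. It was detected on 0 of 3 arrays in each group labelled IL10 knockout and in cecum. Its values were 6.03, 4.30 and 5.09 in TLR4 knockout self-filling loops, 7.23, 5.34 and 7.33 in TLR4 knockout self-emptying loops, 5.26, 4.24 and 4.48 in WT self-filling loops, 5.61, 5.64, 4.40 and 5.96 in WT self-emptying loops and 6.17, 6.50 and 5.09 in ileum. The highest 2 arrays were of TLR4 knockout self-emptying loops, while the other array of that group (5.34) lay below arrays of 3 other groups, and each group overlapped the next in order of mean.

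Cyp3a13, a CYP3A gene with strong expression in mouse small intestine, was by contrast bright everywhere, and all 3 of its probes were detected on 25 of 25 arrays. Group means of the brightest probe lay between 11.09 ± 0.13 in cecum and 12.42 ± 0.12 in self-filling loops labelled IL10 knockout (SD, n = 3 each). Self-filling loops labelled IL10 knockout had 12.36, 12.56 and 12.34, against 11.45, 12.02 and 11.10 in WT self-filling loops and 11.67, 11.60 and 11.79 in ileum. They stood above all arrays of WT self-filling loops, cecum and ileum but overlapped TLR4 knockout self-emptying loops (12.64, 11.48 and 12.05).

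Cyp2c55, a mouse P450 of the large intestine that hydroxylates arachidonic acid, was the only member highest in cecum, with 11.48, 11.31 and 11.06. It was detected on 0 of 6 arrays labelled IL10 knockout. Its values were 4.85, 5.26 and 6.77 in TLR4 knockout self-filling loops, 8.23, 8.01 and 8.99 in TLR4 knockout self-emptying loops, 5.78, 5.32 and 5.26 in WT self-filling loops, 7.17, 5.17, 4.38 and 5.71 in WT self-emptying loops and 6.33, 5.19 and 7.36 in ileum. Cecum stood apart from every group, and TLR4 knockout self-emptying loops stood apart from every other group below it.

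Cyp2b10, the mouse gene most used as a readout of CAR, was at the limit of detection outside 1 group. It had 6.02, 5.22 and 5.37 in TLR4 knockout self-emptying loops, where all 3 arrays were detected, and 1 further array, of WT self-filling loops, was detected at 5.00. On the other 21 arrays its values lay between 4.28 and 4.81 and it was not detected. The 3 detected arrays of TLR4 knockout self-emptying loops stood above all others. A second probe of the gene was detected on 1 of 25 arrays, also of TLR4 knockout self-emptying loops, and failed the filter. Cyp2j6, a CYP2J enzyme, lay between 4.2 and 4.51 on all arrays and gave no level.

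Of the hydrolases, Ces1c, a secreted carboxylesterase, varied little within groups. Its values were 4.57, 4.36 and 4.79 in self-filling loops labelled IL10 knockout, where it was detected on 1 array, and 5.60, 6.23 and 5.80 in self-emptying loops labelled IL10 knockout. They were 7.18, 6.27 and 6.78 in TLR4 knockout self-filling loops, 7.93, 8.04 and 8.17 in TLR4 knockout self-emptying loops, 6.03, 5.84 and 6.07 in WT self-filling loops and 7.27, 7.14, 7.41 and 7.16 in WT self-emptying loops. Cecum had 4.22, 4.64 and 4.33, not detected on any array, and ileum 7.25, 7.75 and 7.71. In each genotype the self-filling arrays lay below the self-emptying arrays without overlap, and within each kind of loop the genotypes were ordered TLR4 knockout, WT and labelled IL10 knockout from high to low, also without overlap. This is the probe standing for the gene. On the other probe that passed the filter, TLR4 knockout (6.72 to 7.52) and WT self-emptying loops (6.26 to 6.77) overlapped.

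Ephx2, the soluble epoxide hydrolase that turns epoxides of arachidonic acid into diols, was detected on all 25 arrays. Its values were 5.88, 6.15 and 5.97 in self-filling loops labelled IL10 knockout, 6.28, 6.81 and 6.28 in self-emptying loops labelled IL10 knockout, 7.76, 5.49 and 6.89 in TLR4 knockout self-filling loops and 8.79, 7.65 and 7.99 in TLR4 knockout self-emptying loops. WT self-filling loops had 7.48, 6.39 and 6.32, WT self-emptying loops 9.10, 8.77, 7.83 and 8.66, cecum 7.73, 7.00 and 7.27 and ileum 8.75, 8.86 and 8.17. The WT self-filling loops lay below WT self-emptying loops and ileum without overlap, and those overlapped each other. Nr1i2, the gene of the receptor PXR, was flat: all 25 arrays lay between 7.21 and 8.26, and group means between 7.57 ± 0.08 in self-emptying loops labelled IL10 knockout and 8.04 ± 0.08 in ileum (SD, n = 3 each).

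**Figure D1:**
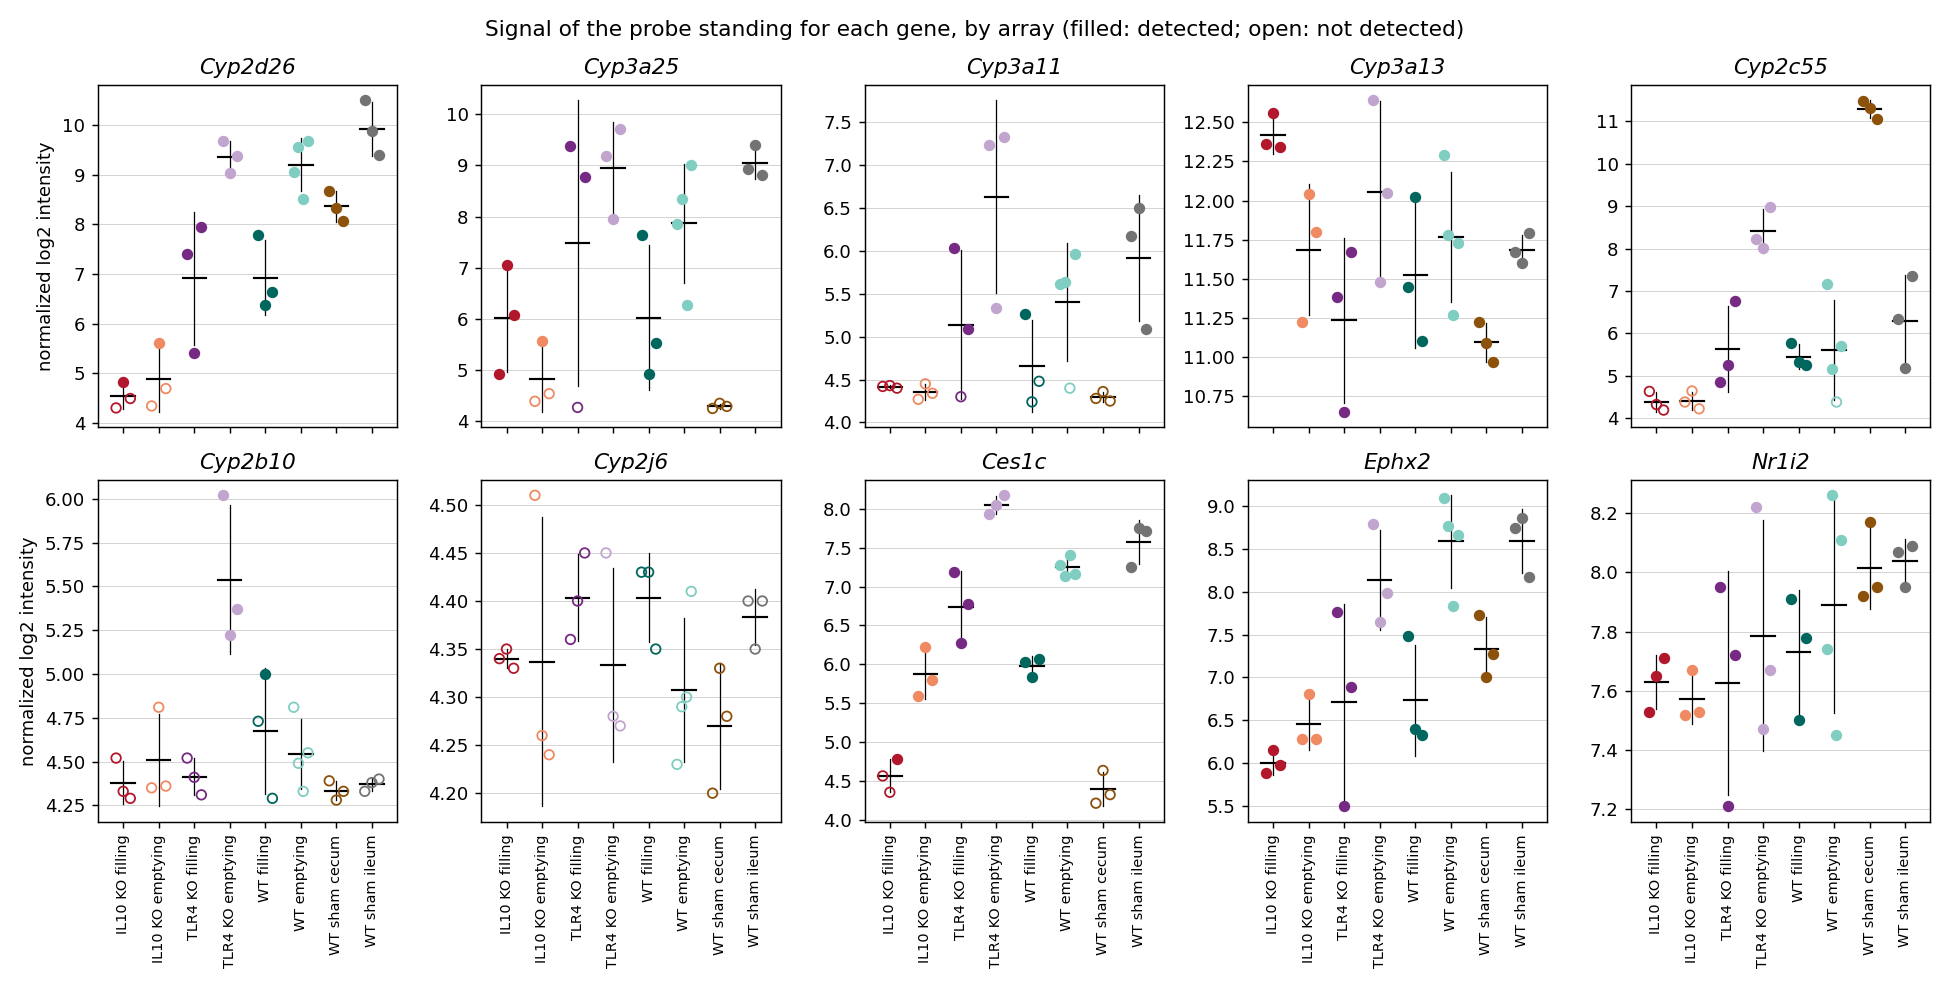
Normalized log2 intensity (y axis, with its own range in each panel) of the probe standing for each of the 10 genes, by array; filled points are detected, open points not, the horizontal bar is the group mean and the vertical line ± 1 SD (n = 3, WT self-emptying loops n = 4), and IL10 KO means arrays labelled IL10 knockout. Ces1c is lower in self-filling than in self-emptying loops in each genotype, Cyp2c55 is highest in cecum (11.06 to 11.48), and Cyp2j6 is not detected on any array.

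Against sham ileum, 4 of the 9 tested genes fell in WT self-filling loops and none rose, whereas 19.7% of all genes changed and 9.22% of all genes were lower. The fall was largest for the P450 genes Cyp3a25 and Cyp2d26, followed by Ephx2 and Ces1c. Cyp2d26 averaged 6.93 ± 0.75 in WT self-filling loops and 9.93 ± 0.55 in ileum (SD, n = 3 each), a difference of -3.0 ± 0.50 (SE) or 8.02-fold lower (limma adjusted p = 0.0008). Ces1c averaged 5.98 ± 0.13 in WT self-filling loops and 7.57 ± 0.28 in ileum, a difference of -1.59 ± 0.20 (adjusted p = 7.62e-05). Ephx2 averaged 6.73 ± 0.65 in WT self-filling loops and 8.59 ± 0.37 in ileum, a difference of -1.87 ± 0.44 (adjusted p = 0.0065). Arrays of the groups did not overlap for these genes.

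Cyp3a25 averaged 6.02 ± 1.43 in WT self-filling loops and 9.05 ± 0.32 in ileum, a difference of -3.03 ± 0.96 with a limma adjusted p of 0.0317. That call was lost under 8 of 15 alternatives, among them leaving out any of the 3 ileum arrays, the second or the third self-filling array (adjusted p up to 0.117). Its relative Cyp3a11 had -1.26 ± 0.48 (adjusted p = 0.0687), and passed only without the third ileum array (-1.68, adjusted p = 0.0365). The other tested genes did not pass, with Cyp2c55 at -0.84 ± 0.56, Cyp3a13 at -0.16 ± 0.30, Cyp2b10 at 0.31 ± 0.19 and Nr1i2 at -0.31 ± 0.21. The median difference of the 9 genes was -1.26, against 0.04 over all genes tested. Within runs of 8 consecutive array codes the difference was -3.43 and -2.78 for Cyp2d26, -1.31 and -1.64 for Ces1c and -1.82 and -1.85 for Ephx2.

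In WT self-emptying loops, 0 of the 9 genes passed against sham ileum by limma, and 0 had an unadjusted p under 0.05. Of all genes, 0.00891% changed in that comparison and 7.86% had an unadjusted p under 0.05. The differences were -0.73 ± 0.46 for Cyp2d26 (adjusted p = 0.764), -1.18 ± 0.90 for Cyp3a25 (adjusted p = 0.82), -0.32 ± 0.19 for Ces1c (adjusted p = 0.722) and -0.01 ± 0.41 for Ephx2 (adjusted p = 0.999). Cyp3a11 had -0.52 ± 0.45, Cyp2c55 -0.69 ± 0.52, Cyp2b10 0.18 ± 0.18, Nr1i2 -0.15 ± 0.19 and Cyp3a13 0.09 ± 0.28. These errors leave room for differences, above all in Cyp3a25.

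Marker genes of several cell types moved with the WT self-filling loops. Of 9 tested enterocyte markers 4 fell against ileum, with Mep1a, a brush-border protease, at -1.81 ± 0.40 (adjusted p = 0.00467), and their summed intensity was 43809 to 57232 in WT self-filling loops, against 75261 to 78464 in ileum. Adipocyte markers summed to 191 to 289, with Plin1, Lep and Car3 not detected, against 2105 to 14775 in ileum, and 4 of 6 fell. T cell markers summed to 180 to 266, against 428 to 803 in ileum (4 of 5 fell), and macrophage markers to 282 to 664, against 934 to 1952 in ileum (4 of 6 fell). Large-intestinal markers summed to 5621 to 8151 in WT self-filling loops, against 2630 to 3038 in ileum, and 2 of 8 rose, Aqp4 by 1.79 ± 0.34 and Car4 by 1.17 ± 0.31. Of the 8 hepatocyte markers 3 were tested, with Alb, Fgb, Ahsg, Apoh and Tat under the filter, and 0 of 3 passed (limma), with 0 at an unadjusted p under 0.05. Of 7 smooth muscle markers 1 fell, and the only tested pancreatic acinar marker, Cela1, rose by 1.75 ± 0.21. The part of these cell types in the falls of the xenobiotic genes was not tested.

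Of 21 other P450 genes of families 1 to 4 that were tested, 7 fell and 0 rose in WT self-filling loops against ileum, among them Cyp4v3, of a family of fatty acid hydroxylases, at -2.26 ± 0.63 (adjusted p = 0.0179), Cyp2d22, another CYP2D gene, at -2.05 ± 0.53 (adjusted p = 0.0108), and Cyp4b1 at -1.67 ± 0.58 (adjusted p = 0.0467). Of 9 other esterase and epoxide hydrolase genes 2 fell, Ces1d, a carboxylesterase and lipase, at -2.96 ± 0.61 (adjusted p = 0.00334) and Ephx1, the microsomal epoxide hydrolase, at -0.94 ± 0.30 (adjusted p = 0.0332). Of 5 electron partners 2 rose: Por, the P450 oxidoreductase, had 9.77 ± 0.35 in WT self-filling loops and 8.46 ± 0.20 in ileum (difference 1.30 ± 0.26, adjusted p = 0.00283), and Cyb5r1 had 0.57 ± 0.18 (adjusted p = 0.0344). Of 9 conjugating enzymes 3 fell and 0 rose, with the phenol sulfotransferase Sult1a1 at -2.36 ± 0.52 (adjusted p = 0.00479). Of 10 nuclear receptors 1 fell, the vitamin D receptor Vdr at -0.72 ± 0.23 (adjusted p = 0.0303), and of 7 transporters 1 fell, the carnitine carrier Slc22a5 at -0.84 ± 0.23 (adjusted p = 0.0161). Cyp4b1, Vdr and Slc22a5 did not pass with median scaling, nor did Ephx1 without background correction or Cyb5r1 with the runs as a block.

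Of the 12 comparisons, cecum against ileum had the most members past the threshold, with 1 gene up and 5 down of 9 tested, while 27.8% of all genes changed, 16.2% higher and 11.6% lower. Cyp2c55 rose by 4.99 ± 0.56, or 31.7-fold (limma adjusted p = 4.18e-07). Cyp3a25 was at least 19.8-fold lower (adjusted p = 0.000598), Ces1c at least 7.1-fold lower (adjusted p = 4.44e-11) and Cyp3a11 at least 2.26-fold lower (adjusted p = 0.0138), bounds because none of the 3 was detected in cecum. Cyp2d26 fell by 1.57 ± 0.50 (adjusted p = 0.021) and Ephx2 fell by 1.26 ± 0.44 (adjusted p = 0.0343) on the log2 scale. Cyp3a13 (-0.59 ± 0.30, adjusted p = 0.157), Cyp2b10 and Nr1i2 did not pass, but Cyp3a13 did in a fit on these groups alone (adjusted p = 0.00665). Without the first ileum array 3 genes passed in place of 6, since Cyp2d26, Cyp3a11 and Ephx2 lost the call. Without cecum array 2 or 3 Cyp2d26 and Ephx2 lost it (adjusted p 0.052 to 0.118), and without the second ileum array Cyp3a11 and Ephx2 did (adjusted p = 0.0768 and 0.111).

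Relatives of the members showed both directions in cecum. Of 21 other P450 genes 7 rose and 7 fell against ileum, and the largest rises were in the CYP2D genes Cyp2d12 (6.30 ± 0.17), Cyp2d9 (at least 38.2-fold) and Cyp2d34 (at least 25.1-fold), opposite to Cyp2d26. Of the esterase and epoxide hydrolase genes Ces2g rose by 2.36 ± 0.26 and Ephx4 was at least 1.77-fold higher, while Ces2e fell by 1.30 ± 0.25. Among conjugating enzymes Sult1a1 rose by 3.78 ± 0.52 and Ugt2b36, a glucuronosyltransferase, fell by 4.48 ± 0.39. The receptor gene Hnf4g was at least 6.26-fold lower, and of 10 receptor genes 5 fell and 2 rose, among the risers Nr1i3, the CAR gene, at 0.69 ± 0.19 (adjusted p = 0.00984). All 9 enterocyte markers fell, to a sum of 3802 to 4611 in cecum against 75261 to 78464 in ileum, with Apoa4 and Enpep not detected, and all 8 large-intestinal markers rose. The part of this shift in epithelium in the differences of the members was not tested.

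Self-filling loops had less Ces1c than self-emptying loops in each genotype. In WT loops 3 of 9 genes fell and none rose, with 11.5% of all genes changed and 5.59% lower. Cyp2d26 had 6.93 ± 0.75 in self-filling and 9.21 ± 0.53 in self-emptying loops (SD, n = 3 and 4), a difference of -2.28 ± 0.46 or 4.84-fold lower (limma adjusted p = 0.00529). Ephx2 had 6.73 ± 0.65 in self-filling and 8.59 ± 0.54 in self-emptying loops, 3.63-fold lower (adjusted p = 0.00801), and Ces1c 5.98 ± 0.13 in self-filling and 7.24 ± 0.12 in self-emptying loops, 2.4-fold lower (adjusted p = 0.000511). Cyp3a25 had -1.85 ± 0.90 and did not pass (adjusted p = 0.18). Within runs the differences were -1.99 and -3.04 for Cyp2d26, -1.33 and -1.09 for Ces1c and -2.17 and -2.34 for Ephx2. Without the 6 arrays of codes 9 to 16, 1 gene passed in place of 3. Cyp2d26 then had -2.44 (adjusted p = 0.0745) and Ephx2 -2.15 (adjusted p = 0.0725), and Ephx2 also lost the call without the third self-filling array (adjusted p = 0.055).

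The same cell type markers differed between WT self-filling and self-emptying loops, though fewer passed. Enterocyte markers summed to 43809 to 57232 in self-filling and 65418 to 72563 in self-emptying loops, and 1 of 9 fell, Mep1a at -1.44 ± 0.37. Adipocyte markers summed to 191 to 289 in self-filling and 643 to 17569 in self-emptying loops (3 of 6 fell), and 3 of 5 T cell markers fell. Of the large-intestinal markers 3 of 8 rose, among them the water channel Aqp4 at 1.52 ± 0.32. Of 21 other P450 genes 6 fell and 0 rose: Cyp2e1, which oxidises ethanol, was at least 8.0-fold lower (adjusted p = 0.0345), Cyp4v3 had -2.05 ± 0.59 (adjusted p = 0.0308) and Cyp4b1 -1.89 ± 0.54 (adjusted p = 0.0293). Ces1d fell by 3.02 ± 0.57 (adjusted p = 0.00384) and Ephx1 by 0.93 ± 0.28 (adjusted p = 0.0384), and Por rose by 1.04 ± 0.25 (adjusted p = 0.0125). With the runs as a block neither Cyp2e1 (adjusted p = 0.079) nor Ephx1 (adjusted p = 0.0998) passed. The part of the cell types in these differences was not tested.

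In loops labelled IL10 knockout, Ces1c was the only 1 of the 9 genes to pass between self-filling and self-emptying loops, while 4.12% of all genes changed and 2.2% were lower. It averaged 4.57 ± 0.21 in self-filling and 5.88 ± 0.32 in self-emptying loops (SD, n = 3 each), a difference of -1.30 ± 0.20 (limma adjusted p = 0.000825), and within runs the difference was -1.23, -1.24 and -1.44. With 1 of 3 self-filling arrays detected, its size depended on the background correction, and without it the difference was -0.38 (adjusted p = 0.0332). Fitted on these groups alone the adjusted p was 0.092. Cyp2d26 (-0.34 ± 0.50), Cyp3a11 (0.06 ± 0.48) and Cyp2c55 (-0.04 ± 0.56) were at the limit of detection in both kinds of loop, so that a difference was not detectable. Cyp3a25 had 1.19 ± 0.96 (adjusted p = 0.519) and Cyp3a13 0.73 ± 0.30 (adjusted p = 0.166). Of the other P450 genes 1 rose and 2 fell, Cyp2d9 at 1.85 ± 0.43 and Cyp4f16 and Cyp4f14, hydroxylases of fatty acids and leukotrienes, at -1.16 ± 0.27 and -0.85 ± 0.23. The glucuronosyltransferase gene Ugt2b36 fell by 1.93 ± 0.39 (adjusted p = 0.00769). Enterocyte markers summed to 36439 to 44656 in self-filling and 37902 to 58827 in self-emptying loops, and 0 of 9 passed (limma), with 2 at an unadjusted p under 0.05. Of the large-intestinal markers 2 of 8 rose, Aqp4 by 1.75 ± 0.34 and Hsd11b2 by 1.49 ± 0.39, which did not pass with median scaling. Of the macrophage markers 1 of 6 rose, Cd68 by 1.41 ± 0.40, with 4 at an unadjusted p under 0.05. For this comparison the share of all genes at that unadjusted p is not given, so these marker counts have no background to be read against. Of 8 hepatocyte markers 3 were tested, and Cps1 fell by 1.42 ± 0.25, which alone does not show the presence of hepatocytes. The part of the cell types in the difference of Ces1c was not tested.

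In TLR4 knockout loops 2 of 9 genes fell in self-filling against self-emptying loops, where only 0.0802% of all genes (9 of 11227) changed and 0.0445% were lower. These were Ces1c, with 6.74 ± 0.45 in self-filling and 8.04 ± 0.12 in self-emptying loops (difference -1.30 ± 0.20, limma adjusted p = 0.00995), and Cyp2b10, which was not detected in self-filling loops and at least 1.65-fold lower there (adjusted p = 0.0163). Cyp2b10 entered the tests only through the self-emptying arrays in which it was high, so its call is no support for a difference beyond the detection itself. Without the detection filter its adjusted p was 0.0425, and without background correction it did not pass (-0.33, adjusted p = 0.063). All 9 differences were below 0, with a median of -1.43 against 0.02 over all genes, and 7 of 9 had an unadjusted p under 0.05, as did 9.03% of all genes. The median and both counts include Cyp2b10 and so rest partly on how it entered the tests. Cyp2c55 had -2.78 ± 0.56 (adjusted p = 0.0603) and Cyp2d26 -2.45 ± 0.50 (adjusted p = 0.0608), each without overlap of the arrays. Ephx2 had -1.43 ± 0.44 (adjusted p = 0.288).

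Which genes passed between TLR4 knockout self-filling and self-emptying loops depended on single arrays. Without the second self-filling array or without the first self-emptying array 0 of the 9 genes passed (limma), with adjusted p-values of 0.0513 and 0.0534 for Ces1c and 0.0644 and 0.103 for Cyp2b10. The differences of Ces1c were then -1.07 and -1.36, in place of -1.30. Without the first or the third self-filling array 3 genes passed, with Cyp2d26 at -2.69 (adjusted p = 0.0447) and -2.97 (adjusted p = 0.0266) among them. Without the third self-filling array Cyp2c55 also passed (-3.35, adjusted p = 0.0266) and Cyp2b10 did not (adjusted p = 0.051). Without the second self-filling array the differences of Cyp3a25 and Nr1i2 were 0.13 and 0.05 in place of -1.47 and -0.16, so that 2 were no longer below 0, and those of Ephx2 and Cyp3a13 were -0.82 and -0.53 in place of -1.43 and -0.82. Fitted on these groups alone, Ces1c had an adjusted p of 0.372 and Cyp2b10 of 0.508. Of the 21 other P450 genes 0 passed (limma) and 8 had an unadjusted p under 0.05, and of 9 enterocyte markers 0 passed and 1 had an unadjusted p under 0.05. Adipocyte markers summed to 455 to 1263 in self-filling and 3049 to 15456 in self-emptying loops. Large-intestinal markers summed to 4063 to 4897 in self-filling and 2428 to 3942 in self-emptying loops. The sums of enterocyte, T cell, macrophage and smooth muscle markers overlapped. The part of these cell types in the differences was not tested.

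**Figure D2:**
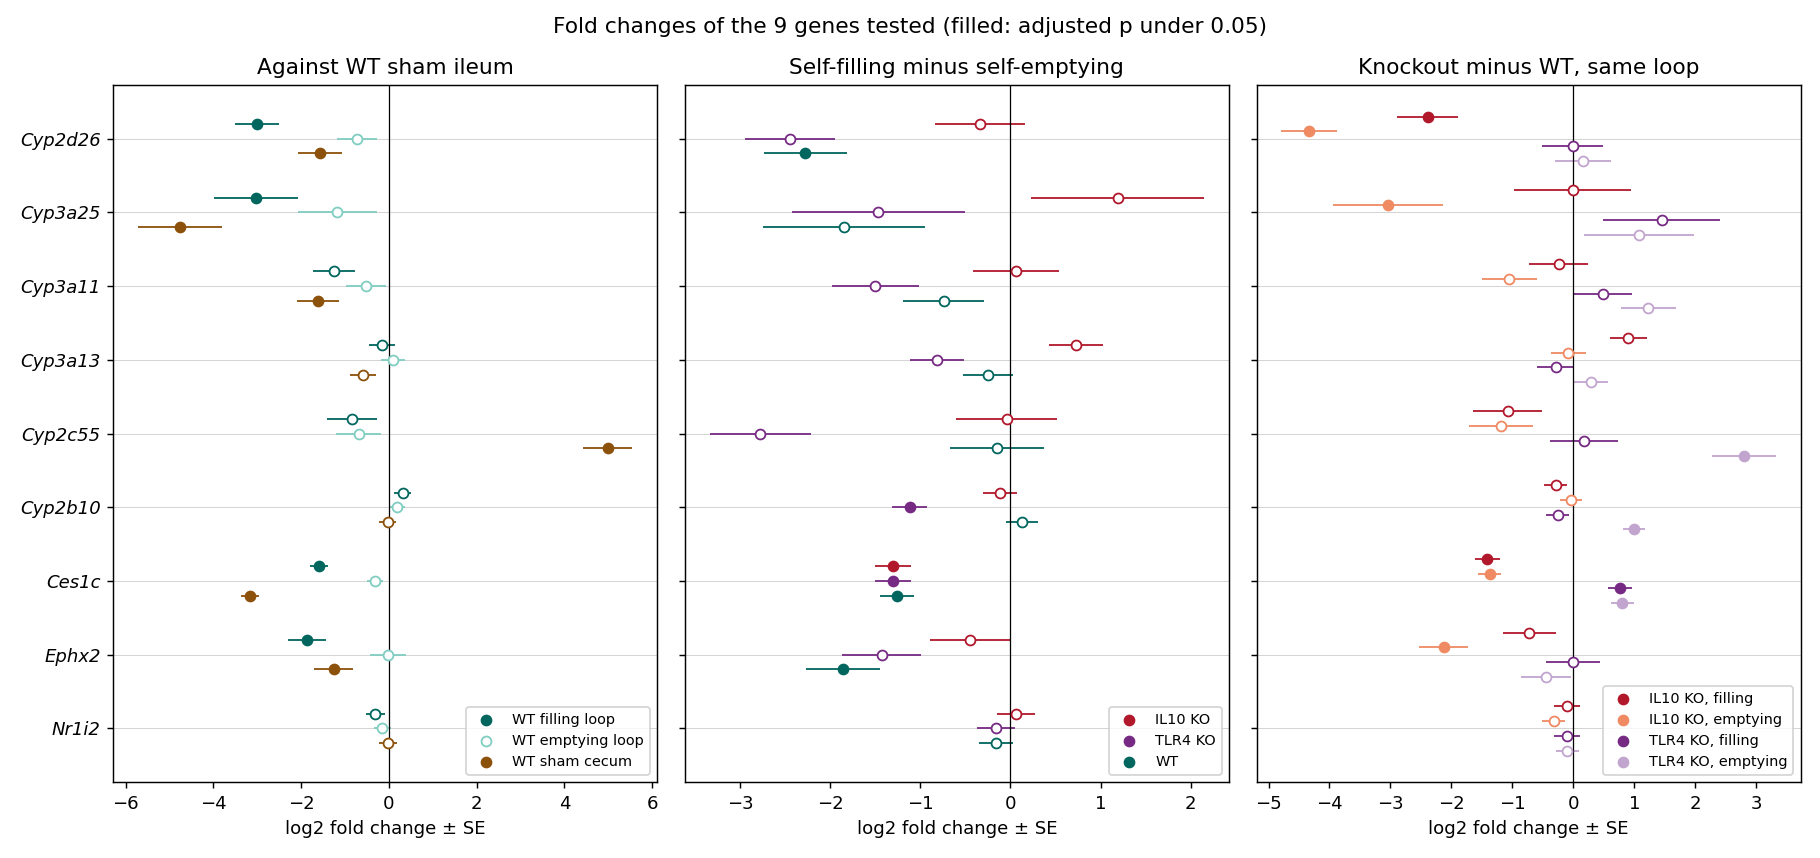
Log2 fold change ± SE (x axis, each panel with its own range) of the 9 tested genes: left, WT self-filling loop, WT self-emptying loop and WT cecum against WT ileum; middle, self-filling against self-emptying loops in each genotype; right, knockout against WT in the same kind of loop. Filled points have an adjusted p under 0.05, and IL10 KO means arrays labelled IL10 knockout. Ces1c is filled in all 3 rows of the middle panel (-1.30, -1.30 and -1.26), sizes that hold for this probe and processing. Nr1i2 is open in every row.

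Against WT loops of the same kind, every member that passed fell in loops labelled IL10 knockout, and every member that passed rose in TLR4 knockout loops. Among the risers was Cyp2b10, which entered the tests only through TLR4 knockout arrays in which it was high. In self-emptying loops labelled IL10 knockout 4 of 9 genes fell and none rose, with 9.55% of all genes changed and 4.31% lower. Cyp2d26 averaged 4.88 ± 0.65 in self-emptying loops labelled IL10 knockout (n = 3) and 9.21 ± 0.53 in WT self-emptying loops (n = 4), a difference of -4.33 ± 0.46 (limma adjusted p = 1.87e-05). It was detected on 1 of the 3 arrays labelled IL10 knockout, and without background correction the difference was -2.41 (adjusted p = 0.000128). Ephx2 fell by 2.13 ± 0.41 (adjusted p = 0.00276) and Ces1c by 1.37 ± 0.19 (adjusted p = 0.000177). Cyp3a25, also detected on 1 of those 3 arrays, had -3.04 ± 0.90 with an adjusted p of 0.0373, a call that was lost under 10 of 16 alternatives (adjusted p up to 0.254). Those included leaving out WT self-emptying array 1, 2 or 4 or array 1 or 3 of the loops labelled IL10 knockout. Cyp2c55 (-1.19 ± 0.52, adjusted p = 0.162), Cyp3a11 (-1.05 ± 0.45, adjusted p = 0.156), Nr1i2 (-0.32 ± 0.19), Cyp3a13 (-0.08 ± 0.28) and Cyp2b10 (-0.04 ± 0.18) did not pass. All 9 differences were below 0, with a median of -1.19 against 0.02 over all genes. The sign of Cyp2b10 carries no meaning, as the gene was not detected in either group. That median is the value of Cyp2c55, which was not detected in the loops labelled IL10 knockout and so is measured against the floor.

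Within runs, the differences between self-emptying loops labelled IL10 knockout and WT were -4.37, -4.70 and -4.07 for Cyp2d26, -2.82, -2.02 and -1.85 for Ephx2 and -1.47, -1.67 and -0.93 for Ces1c. Without the arrays of codes 9 to 16, 2 genes passed in place of 4, as Ephx2 (-2.33, adjusted p = 0.0811) and Cyp3a25 lost the call. Of 21 other P450 genes 7 fell and 0 rose, among them Cyp4v3 (-3.09 ± 0.59, adjusted p = 0.00281), Cyp4b1 (-2.20 ± 0.54, adjusted p = 0.0142) and Cyp2c67 (-1.97 ± 0.36, adjusted p = 0.00196). Of 9 other esterase and epoxide hydrolase genes 4 fell, with Ces1d at -2.12 ± 0.57 (adjusted p = 0.0239), Ces1f at -1.81 ± 0.51 (adjusted p = 0.0283) and Ces2e at -0.89 ± 0.23 (adjusted p = 0.0205), and with median scaling 1 of them fell. Of 9 conjugating enzymes 5 fell, with Ugt2b36 at -2.50 ± 0.37 (adjusted p = 0.000326). The export pump gene Abcc2 had -1.52 ± 0.48 (adjusted p = 0.0486). Enterocyte markers summed to 37902 to 58827 in loops labelled IL10 knockout and 65418 to 72563 in WT, and 4 of 9 fell, with the trehalose-splitting brush-border enzyme Treh at -2.51 ± 0.64. Of 8 large-intestinal markers Aqp4 and Car4 rose, neither with median scaling, and Sycn fell by 1.22 ± 0.30. The part of these cell types in these differences was not tested.

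In self-filling loops labelled IL10 knockout 2 of 9 genes fell against WT self-filling loops, with 12.6% of all genes changed and 6.64% lower. Cyp2d26 averaged 4.54 ± 0.26 in self-filling loops labelled IL10 knockout and 6.93 ± 0.75 in WT self-filling loops (SD, n = 3 each), a difference of -2.39 ± 0.50 (limma adjusted p = 0.00271). Ces1c averaged 4.57 ± 0.21 in self-filling loops labelled IL10 knockout and 5.98 ± 0.13 in WT, a difference of -1.41 ± 0.20 (adjusted p = 7.87e-05). Within runs the difference was -2.78 and -2.14 for Cyp2d26 and -1.37 and -1.28 for Ces1c. Each was detected on 1 of the 3 arrays labelled IL10 knockout. Without background correction Cyp2d26 had -0.91 (adjusted p = 0.0594) and Ces1c -0.42 (adjusted p = 0.00939). Cyp2c55 was not detected in self-filling loops labelled IL10 knockout, at least 1.56-fold below WT, and did not pass (adjusted p = 0.23), although it did in a fit on these groups alone (adjusted p = 0.0188). Ephx2 had -0.72 ± 0.44 (adjusted p = 0.313) and Cyp3a25 -0.01 ± 0.96.

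Cyp3a13 ran the other way in self-filling loops labelled IL10 knockout. Its brightest probe was 0.90 ± 0.30 above WT self-filling loops (limma adjusted p = 0.051), without overlap of the arrays. Its other probes had 1.53 ± 0.50 (adjusted p = 0.0497) and 1.25 ± 0.41 (adjusted p = 0.0512), adjusted over all probes in place of genes. The gene passed with runs as a block (1.02, adjusted p = 0.0303) and without the second WT array (1.15, adjusted p = 0.0222). Of the other P450 genes 3 rose and 4 fell in this comparison: Cyp4f18, a leukotriene hydroxylase of immune cells, rose by 2.02 ± 0.32 (adjusted p = 0.000217), Cyp2d9 was at least 2.98-fold higher and Cyp2c67 at least 3.8-fold lower. Of the other esterase and epoxide hydrolase genes 4 fell, with Ces1f at -2.11 ± 0.54 (adjusted p = 0.0134), Ces2e at -1.34 ± 0.25 (adjusted p = 0.00118) and Ces2g at -1.20 ± 0.26 (adjusted p = 0.00405). Ugt2b36 fell by 3.25 ± 0.39 and Sult1a1 rose by 2.02 ± 0.52. Enterocyte markers summed to 36439 to 44656 in loops labelled IL10 knockout and 43809 to 57232 in WT self-filling loops (3 of 9 fell), T cell markers to 810 to 1197, against 180 to 266 in WT (5 of 5 rose), and macrophage markers to 1973 to 2343, against 282 to 664 in WT (5 of 6 rose). The large-intestinal marker Aqp4 also rose, but did not pass with median scaling, and the listed hepatocyte marker Cps1 and acinar marker Cela1 fell. Of 8 hepatocyte markers only 3 were tested, and of 7 acinar markers only Cela1, which was brightest in cecum (3450 to 4043). Neither gene alone shows the presence of hepatocytes or acinar cells. The part of the cell types in these differences was not tested.

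In TLR4 knockout self-emptying loops 3 of 9 genes rose against WT self-emptying loops and none fell, with 5.64% of all genes changed and 2.07% higher. Cyp2c55 averaged 8.41 ± 0.51 in TLR4 knockout (n = 3) and 5.61 ± 1.18 in WT self-emptying loops (n = 4), a difference of 2.80 ± 0.52 or 6.96-fold (limma adjusted p = 0.00269). Cyp2b10 was at least 1.7-fold higher (adjusted p = 0.00186), since it was not detected in WT self-emptying loops. It entered the tests only through the 3 TLR4 knockout arrays in which it was high, so its call is no support for a difference beyond the detection itself (without the detection filter, adjusted p = 0.00279). The count of 3 of 9 includes Cyp2b10 and so rests partly on how it entered the tests. Ces1c rose by 0.80 ± 0.19, or 1.74-fold (adjusted p = 0.0142). Cyp3a11 had 1.23 ± 0.45 (adjusted p = 0.115), and 1.88 without the second TLR4 knockout array (adjusted p = 0.0172). Cyp2d26 (0.16 ± 0.46), Cyp3a25 (1.08 ± 0.90) and Ephx2 (-0.45 ± 0.41) did not pass. Fitted on these groups alone only Ces1c passed, as Cyp2c55 had an adjusted p of 0.0615 and Cyp2b10 of 0.0636. Cyp2b10 also did not pass without the arrays of codes 9 to 16 (adjusted p = 0.0502). Ces1c did not pass with median scaling (adjusted p = 0.0647), with the replicate number as a block (adjusted p = 0.0533) or without the third TLR4 knockout array (adjusted p = 0.0622). Enterocyte markers summed to 56992 to 72590 in TLR4 knockout and 65418 to 72563 in WT self-emptying loops, and 1 of 9 fell, the brush-border protease gene Enpep at -1.28 ± 0.24 (adjusted p = 0.00323), with 2 at an unadjusted p under 0.05. The share of all genes at that unadjusted p is not given, so that count has no background to be read against. The part of enterocytes in the rises was not tested.

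Of 21 other P450 genes 0 passed between TLR4 knockout and WT self-emptying loops (limma), with 5 at an unadjusted p under 0.05, and 0 passed in self-filling loops, with 2. The share of all genes at that unadjusted p is not given, so these counts have no background to be read against. The electron carrier gene Cyb5a, which encodes cytochrome b5, was lower in TLR4 knockout in self-emptying loops (-0.90 ± 0.17, adjusted p = 0.00323) and in self-filling loops (-1.12 ± 0.18, adjusted p = 0.000633), but with median scaling it did not pass in self-emptying loops. In TLR4 knockout self-filling loops 1 of the 9 members rose against WT self-filling loops, with 11.3% of all genes changed and 4.77% higher: Ces1c averaged 6.74 ± 0.45 in TLR4 knockout and 5.98 ± 0.13 in WT (SD, n = 3 each), 1.69-fold higher (adjusted p = 0.0174). It did not pass with median scaling (adjusted p = 0.0636), nor without TLR4 knockout array 1 or 3 (adjusted p = 0.117 and 0.0518) or WT array 2 (adjusted p = 0.0501). Cyp2d26 had -0.01 ± 0.50 and Ephx2 -0.01 ± 0.44, but 0.75 (adjusted p = 0.273) and 0.60 (adjusted p = 0.353) without the second TLR4 knockout array. Cyp3a25 had 1.45 ± 0.96 (adjusted p = 0.354), but 3.06 without that array (adjusted p = 0.0138). Summed smooth muscle markers were 33163 to 45033 in TLR4 knockout and 10135 to 27379 in WT self-filling loops, and 4 of 7 rose, while 1 of 9 enterocyte and 1 of 8 large-intestinal markers fell. Their part in the differences was not tested, and because all TLR4 knockout arrays were of code series MX, code series and genotype cannot be told apart here.

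**Figure D3:**
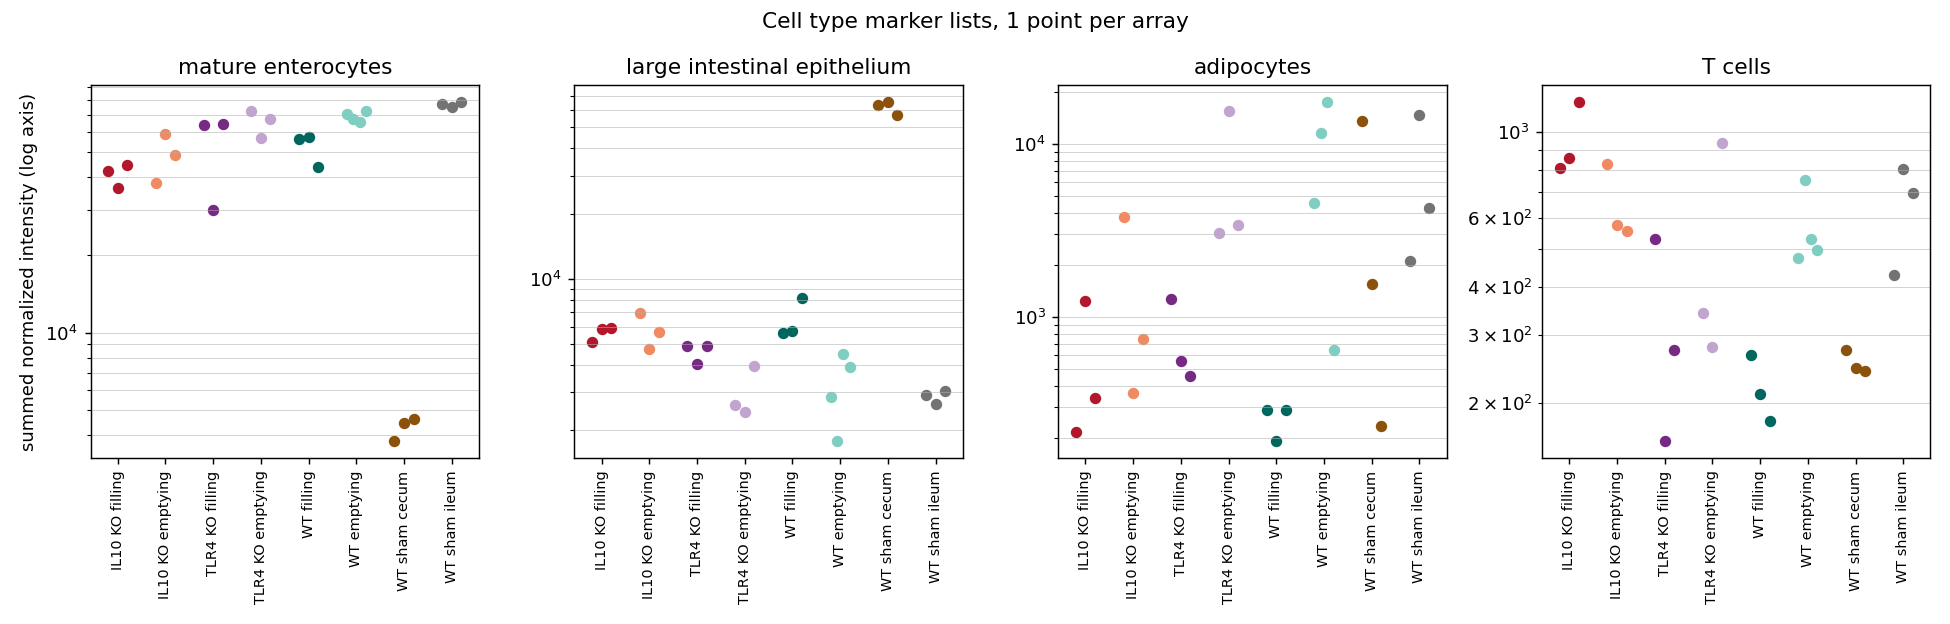
Summed normalized intensity (y axis, log scale, each panel with its own range) of the tested markers of enterocytes, large intestinal epithelium, adipocytes and T cells, 1 point per array, in the 8 groups; IL10 KO means arrays labelled IL10 knockout. Enterocyte markers are lowest in cecum (3802 to 4611) and highest in ileum (75261 to 78464), and the WT self-filling loops are low in adipocyte (191 to 289) and T cell (180 to 266) markers.

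Whether the difference between self-filling and self-emptying loops itself differed by genotype was tested as an interaction. For labelled IL10 knockout against WT, 0 of 9 genes passed by limma and 4 had an unadjusted p under 0.05, against 2.36% of all genes passing and 19.6% with an unadjusted p under 0.05. The differences of differences were 1.93 ± 0.68 for Cyp2d26 (adjusted p = 0.124), 3.04 ± 1.31 for Cyp3a25 (adjusted p = 0.207), 0.98 ± 0.41 for Cyp3a13 (adjusted p = 0.191), 1.41 ± 0.60 for Ephx2 (adjusted p = 0.198) and -0.04 ± 0.27 for Ces1c (adjusted p = 0.958). In self-emptying loops labelled IL10 knockout Cyp2d26 was already near the detection limit, which leaves little room for a lower value, and Ces1c was near it in self-filling loops of that label. Cyp3a25 was detected on 1 of 3 arrays of the self-emptying loops labelled IL10 knockout. Its interaction is therefore also measured partly against the floor. For TLR4 knockout against WT, 0 of 9 genes passed and 2 had an unadjusted p under 0.05, where 0.0% of all genes passed and 6.07% had an unadjusted p under 0.05. Those 2 were Cyp2c55 (-2.63 ± 0.76, adjusted p = 0.681) and Cyp2b10 (-1.25 ± 0.26, adjusted p = 0.19), the gene admitted to the tests by a single group. Ces1c had -0.04 ± 0.27 (adjusted p = 0.992), and its difference between self-filling and self-emptying loops was -1.30 ± 0.20 in loops labelled IL10 knockout, -1.30 ± 0.20 in TLR4 knockout and -1.26 ± 0.19 in WT loops. These near-equal sizes hold for this probe and processing. Without background correction they were -0.38, -0.79 and -0.62 in the same order, and the second Ces1c probe had -0.52, -0.9 and -0.87. The interactions share samples with the comparisons between genotypes.

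Nr1i2 passed in 0 of 12 comparisons (limma), also at an unadjusted p under 0.05, with differences from -0.32 ± 0.19 to 0.22 ± 0.28. Nr1i3, the CAR gene, was dim, with group means between 4.77 ± 0.32 in WT self-emptying loops and 5.52 ± 0.23 in cecum. It had 5.09 ± 0.15 in TLR4 knockout self-emptying loops and 4.77 ± 0.32 in WT self-emptying loops, a difference of 0.31 ± 0.18 (adjusted p = 0.346). Of the other receptor genes tested, Nr1h4, the bile acid receptor gene, rose in self-filling loops labelled IL10 knockout, by 0.56 ± 0.16 against WT self-filling loops (adjusted p = 0.0222) and by 0.61 ± 0.16 against self-emptying loops of the same label (adjusted p = 0.0318), and passed in neither with median scaling. Rxra, the gene of the RXR partner, had 5.43 ± 0.61 in self-emptying loops labelled IL10 knockout and 6.33 ± 0.33 in WT self-emptying loops, a difference of -0.90 ± 0.25 (adjusted p = 0.0282, and 0.0989 with median scaling). Ahr and Nr0b2 failed the detection filter.

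Genes with several probes gave a check within the gene. The other 2 probes of Cyp2d26 had the same sign in all 5 comparisons that passed, and passed in 4 of them. In self-filling loops labelled IL10 knockout against WT, where the signal reached the detection limit, neither passed. A second Ces1c probe had the same sign in all 9 comparisons that passed and passed in 5, all between WT tissues or for loops labelled IL10 knockout against WT. It did not pass between self-filling and self-emptying loops labelled IL10 knockout (-0.52, adjusted p = 0.185) or of TLR4 knockout (-0.90, adjusted p = 0.13). It also did not pass for TLR4 knockout against WT in self-filling (0.49, adjusted p = 0.173) or self-emptying loops (0.53, adjusted p = 0.155). The remaining Ces1c probe was detected on 0 of 25 arrays. Probe sequences were not used here, so whether probes also bind relatives among the Cyp2d, Cyp3a and Ces1 genes was not tested.

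**Figure D4:**
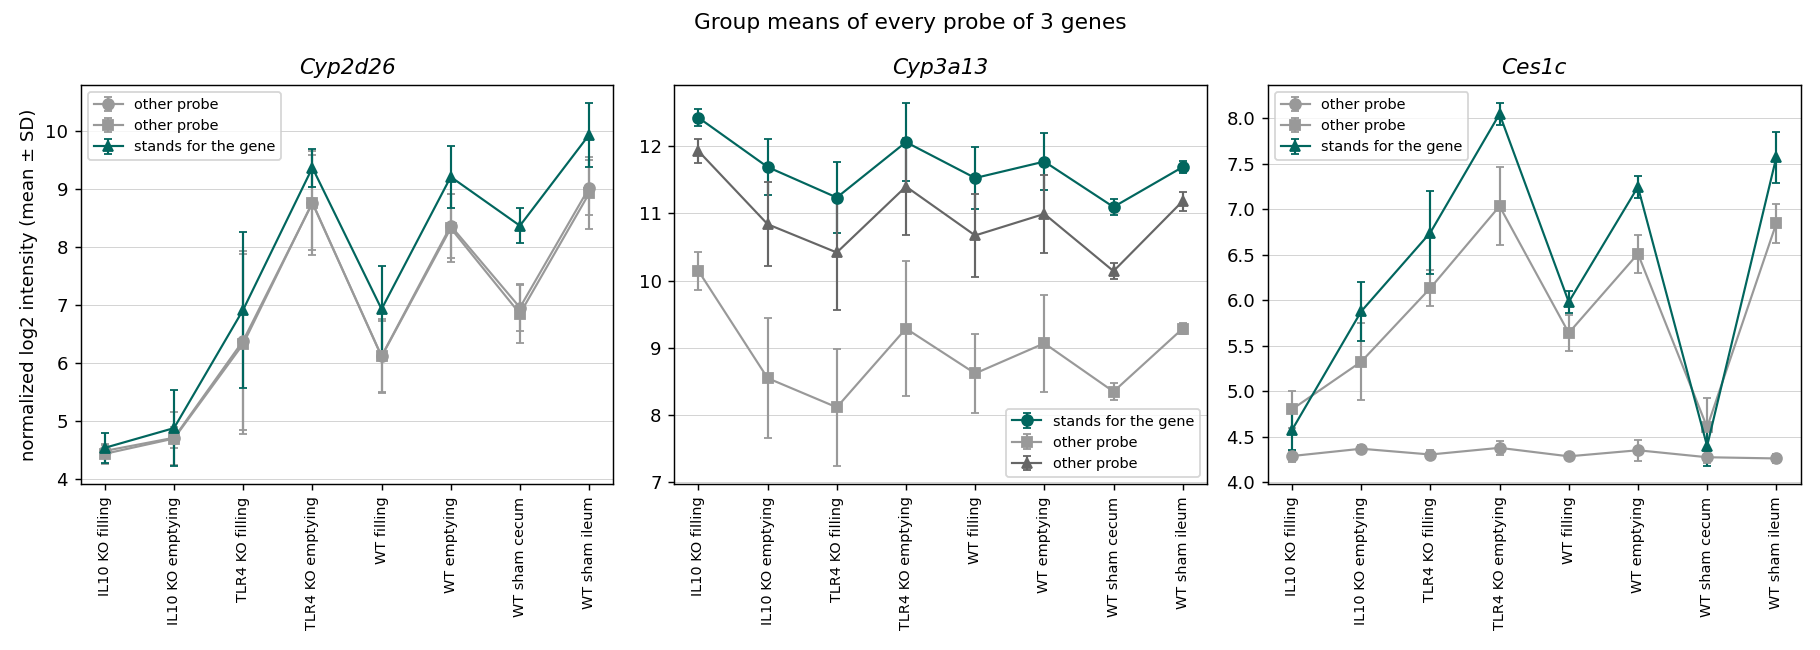
Group mean ± SD (n = 3, WT self-emptying loops n = 4) of normalized log2 intensity (y axis, each panel with its own range) for every probe of Cyp2d26, Cyp3a13 and Ces1c in the 8 groups, with the probe standing for the gene in green and others in grey; IL10 KO means arrays labelled IL10 knockout. Every probe of Cyp2d26 is highest in ileum, and every probe of Cyp3a13 in self-filling loops labelled IL10 knockout. The distances between groups differ by probe. Of the Ces1c probes 1 stays between 4.23 and 4.49 and was not detected on any array.

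The genes whose levels ran most like those of the members are named by Pearson correlations of normalized log2 intensity over 25 arrays of 8 groups. They are a description, and the genes of an array share its RNA and its scaling. Cyp2d26 ran most like Maob, a monoamine oxidase gene (r = 0.95), Immp2l (r = 0.94) and Slc5a6 (r = 0.93). Maob had 8.01 ± 0.41 in WT self-filling loops and 9.83 ± 0.22 in ileum, but 9.63 ± 0.25 in cecum, where Cyp2d26 was lower. Ces1c ran most like Fam234b (r = 0.95), Ugt2b36 (r = 0.94) and Serpina1b (r = 0.94), and Ephx2 most like Cat, the catalase gene (r = 0.93), Iyd (r = 0.92) and the brush-border protease gene Mep1a (r = 0.91).

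Cyp3a25 and Cyp3a11 shared Proz among their closest genes (r = 0.9 and 0.89). The closest to Cyp3a25 was Slc7a15 (r = 0.93) and the closest to Cyp3a11 was Slc2a2, a glucose transporter gene (r = 0.91). Slc2a2 was also among the closest to Cyp2b10 (r = 0.71), after Cfap57 (r = 0.75) and Efhd1 (r = 0.72). Cyp2b10 was not detected on 21 of the 25 arrays and Cyp3a11 on 13, and undetected values have no order. The correlations of these genes therefore rest partly on background. Slc2a2 had 7.48 ± 0.83 in TLR4 knockout self-emptying loops and 5.10 ± 0.52 in WT self-emptying loops, where Cyp2b10 was not detected. It was picked for its correlation over arrays that include these, so its difference is no separate support for one in Cyp2b10. Cyp2c55 ran most like Igdcc4, Shisa2 and BC026585 (r = 0.9 each), and Igdcc4 was likewise highest in cecum (8.91 ± 0.22). Cyp3a13 ran most like Btnl7-ps (r = 0.86), and Nr1i2, with its narrow range, had no gene above Sirt2 (r = 0.79).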

How the data were processed

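The authors deposited a table of bead-averaged intensity for 25697 probes on 25 arrays with a detection p-value for each, and a table of log2 values for 17612 probes. The submitters' processing notes name limma, with no version. From the deposited intensities and detection p-values, background was corrected by normexp (offset 16), and arrays were quantile-normalized and put on the log2 scale (neqc, limma 3.58.1, statmod 1.5.0, R 4.3.3). The deposited log2 values of the authors differed from these by at most 0.0951 (correlation per array at least 0.99999). Probes with a detection p under 0.05 on at least 3 arrays were kept (15318), and the probe with the highest mean stood for each of 11227 genes, 2896 of which had more than 1. Probe names were updated through Entrez number (23788 probes), accession (1148) or older symbol (98), 99 needed no change and 564 stayed as in the file.

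A model with a mean for each of 8 groups over all 25 arrays (17 residual and 3.92 prior degrees of freedom) gave 12 comparisons by limma's moderated test, with Benjamini-Hochberg adjustment over all genes and a threshold of 0.05. Where a group had no detected array, "at least" gives the brighter mean over the dim group's mean, each dim array taken at the higher of its own value and its lowest detected signal. Replicates of a group correlated at 0.968 to 0.992, and 0 pairs of arrays were identical. Same-numbered replicates of different groups deviated from their means with correlations of -0.418 to 0.394. Differently numbered replicates were not compared, so these values cannot show whether the numbers pair samples. The tests took all arrays as unpaired. The procedure was tested on simulated data.

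All 10 members are described in every group. For each comparison up to 3 genes of each list, those with the largest changes past the threshold, could be named. This was done in full for the other P450, esterase and epoxide hydrolase genes, and the other lists are given by counts and examples from that choice. Nr1i3 was added as the CAR gene, and the 3 genes most correlated with a member were taken. The members and lists were chosen with earlier results of these data known. Alternatives were other normalizations and filters, blocks, fits on the compared groups and leaving out arrays; leaving out the arrays of codes 9 to 16, a run of consecutive codes, was chosen after seeing the data. The number of arrays limits precision. Tables used pandas 2.3.3 and numpy 2.4.6 in Python 3.11.15, and plots matplotlib 3.10.9. A gene of the pathway lists is not reported here.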

Additional observations from a re-analysis of the deposited data

How the results depend on the processing

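Of 26 member results past the threshold, 10 kept their call under every alternative run, and 57 of 396 alternatives lost one. No result reversed among those past the threshold. Leaving out each array in turn, the members passing ranged from 3 to 6 for cecum against ileum, 0 to 3 for TLR4 knockout self-filling against self-emptying loops and 0 to 2 for TLR4 knockout against WT self-filling loops. Without the arrays of codes 9 to 16, 3 members passed for cecum against ileum in place of 6, 1 for WT self-filling against self-emptying loops in place of 3 and 2 for self-emptying loops labelled IL10 knockout against WT in place of 4. Fitted on the compared groups alone, 0 passed between self-filling and self-emptying loops labelled IL10 knockout, 0 between those of TLR4 knockout, 0 for TLR4 knockout against WT self-filling loops and 1 for TLR4 knockout against WT self-emptying loops. Without background correction 1 passed for self-filling loops labelled IL10 knockout against WT in place of 2, and with median scaling 0 for TLR4 knockout against WT self-filling loops in place of 1; the cause was not tested. With the replicate number as a block, Cyp3a25 lost its call in self-emptying loops labelled IL10 knockout against WT (adjusted p = 0.12) and Ces1c in TLR4 knockout against WT self-emptying loops (adjusted p = 0.0533), so that 3 and 2 members passed, and 4 passed for WT self-filling loops against ileum. Runs as a block could not be fitted for TLR4 knockout against WT.

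Over all genes, the count past the threshold and its range over all alternatives, arrays left out included, was 2212 (905 to 2777) for WT self-filling loops against ileum, 1 (0 to 9) for WT self-emptying loops against ileum and 3121 (2253 to 4001) for cecum against ileum. Between self-filling and self-emptying loops it was 462 (5 to 759) labelled IL10 knockout, 9 (0 to 37) in TLR4 knockout and 1295 (94 to 2375) in WT. Against WT it was 1413 (741 to 1766) in self-filling and 1072 (63 to 1330) in self-emptying loops labelled IL10 knockout, and 1273 (555 to 1619) in self-filling and 633 (164 to 853) in self-emptying TLR4 knockout loops. For the interactions it was 265 (9 to 515) with the IL10 label and 0 (0 to 9) with TLR4. With median scaling the share of higher calls was 70.8% in place of 53.2% for WT self-filling loops against ileum, 83.2% in place of 51.5% against WT self-emptying loops and 34.6% in place of 58.4% for cecum against ileum. It was 62.9% in place of 46.5% between self-filling and self-emptying loops labelled IL10 knockout, 34.4% in place of 47.3% for self-filling loops labelled IL10 knockout against WT, 26.1% in place of 42.1% for TLR4 knockout against WT self-filling loops and 32.3% in place of 43.0% for the interaction with the IL10 label. Median scaling shifted the median difference of all genes by 0.12 for WT self-filling loops against ileum, 0.19 against WT self-emptying loops and -0.13 for cecum against ileum. Relative to that median Cyp2d26 still had -2.22, Ephx2 -1.83 and Ces1c -1.33 in WT self-filling against self-emptying loops. Dim probes limit what can be seen: 3 of the 17 member probes failed the filter.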
